A study of Mus musculus with 51 samples.

Results

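The mammary gland (MG) of C57BL/6 females was profiled 1 month after the last of 4 weekly X-ray doses of 1.8 Gy (high dose, HD) and compared with the MG of females given 4 weekly sham exposures and taken at the same time. The titles of the samples chose the members, which are 4 HD arrays and 4 sham arrays, 8 of the 51 arrays of the series, with all 22626 probe sets of each. Mice of both groups were virgin females of the inbred strain C57BL/6, 8 weeks of age at the start of the regimen, with no transgene and no other agent. Each array held RNA of the 4th gland pair of 1 mouse after the inguinal lymph node had been removed, as the study's methods state. Other groups are used only for comparison: C57BL/6 females 1 month after 4 weekly doses of 7.5 cGy (low dose, LD, 4 arrays), C57BL/6 females 4 hr after the HD regimen (4 arrays) or sham (3 arrays), and BALB/c females 1 month after the HD regimen (4 arrays) or sham (3 arrays). The comparison asks which transcripts of the more radiation-resistant strain still differ 1 month after the reference high dose.

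The MG is a tree of epithelial ducts within a fat pad. Luminal cells line the ducts and make milk proteins in pregnancy, myoepithelial cells surround them and lie on a basement membrane, and adipocytes, fibroblasts, vessels and immune cells fill the pad. Ionizing radiation breaks DNA and activates p53, which induces genes such as Cdkn1a and Mdm2. Nearly all cells also run a circadian clock, in which CLOCK and ARNTL drive Per and Cry genes through E-box sequences, PER and CRY proteins repress them in turn, and the output factors DBP, TEF and HLF act through D-box sequences. RNA of a whole gland cannot separate fewer cells of a type from less RNA per cell.

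Defining markers of the gland were bright on all 8 arrays: the luminal keratin Krt8 between 11.25 and 12.63, the basal keratin Krt14 between 8.35 and 10.04, the adipocyte hormone Adipoq between 13.35 and 13.79 and the collagen Col3a1 between 13.54 and 13.90 (log2 RMA values, a level). Transcripts of skeletal muscle stood apart in 1 array. Over 29 muscle genes the mean level was 8.48 in sham replicate 2 and 5.64 in sham replicate 4, against 4.78 to 4.90 in the other 6 arrays, and Ckm, the muscle creatine kinase, was at 10.62 in sham replicate 2 and 4.42 to 6.40 elsewhere. Sham replicate 3 had the highest mean over 45 mitosis genes (7.12, against 4.74 to 5.93), and HD replicate 3 the highest means over 17 T cell genes (6.23, against 4.88 to 5.16) and 19 B cell genes (5.87, against 4.52 to 4.64). HD arrays lay in plate columns 9 to 12 and sham arrays in columns 1, 2, 2 and 5 of the same plate, so column and treatment cannot be told apart.

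At an adjusted p under 0.05 (limma, Benjamini-Hochberg over all probe sets), 72 genes were higher and 79 lower after HD, on 207 probe sets (0.915% of all probe sets). With each array centered on its median, which moves the median of all probe sets by 0.0515, the split was 142 higher and 60 lower. Defb1, the antimicrobial peptide beta-defensin 1, had the highest of the 12 largest increases by the rule for named genes, and Chil1, a secreted chitinase-like glycoprotein, the lowest of the 12 largest decreases. The standard error (SE) of a log2 fold change had a median of 0.113, a precision set by 4 arrays per group. At the study's thresholds for HD (an absolute log2 fold change above 0.58 and an unadjusted p under 0.01), 141 genes were higher and 165 lower (1.87% of all probe sets). Without sham replicate 2, the log2 fold changes of all 207 probe sets kept their sign and lay between 0.777 and 1.23 times their values with all arrays. With 3 sham arrays, 27 of the 207 stayed under an adjusted p of 0.05 and 174 under 0.1, with 0.124 as the highest. Leaving out 1 array gave 15 genes (sham replicate 3), 17 (HD replicate 2), 21 (sham replicate 2), 24 (HD replicate 1), 54 (HD replicate 3), 60 (sham replicate 1), 105 (HD replicate 4) or 350 (sham replicate 4), against 151 with all. A limma fit with plate column as a linear covariate called 0 genes, with 1426 at an unadjusted p under 0.05.

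**Figure D1:**
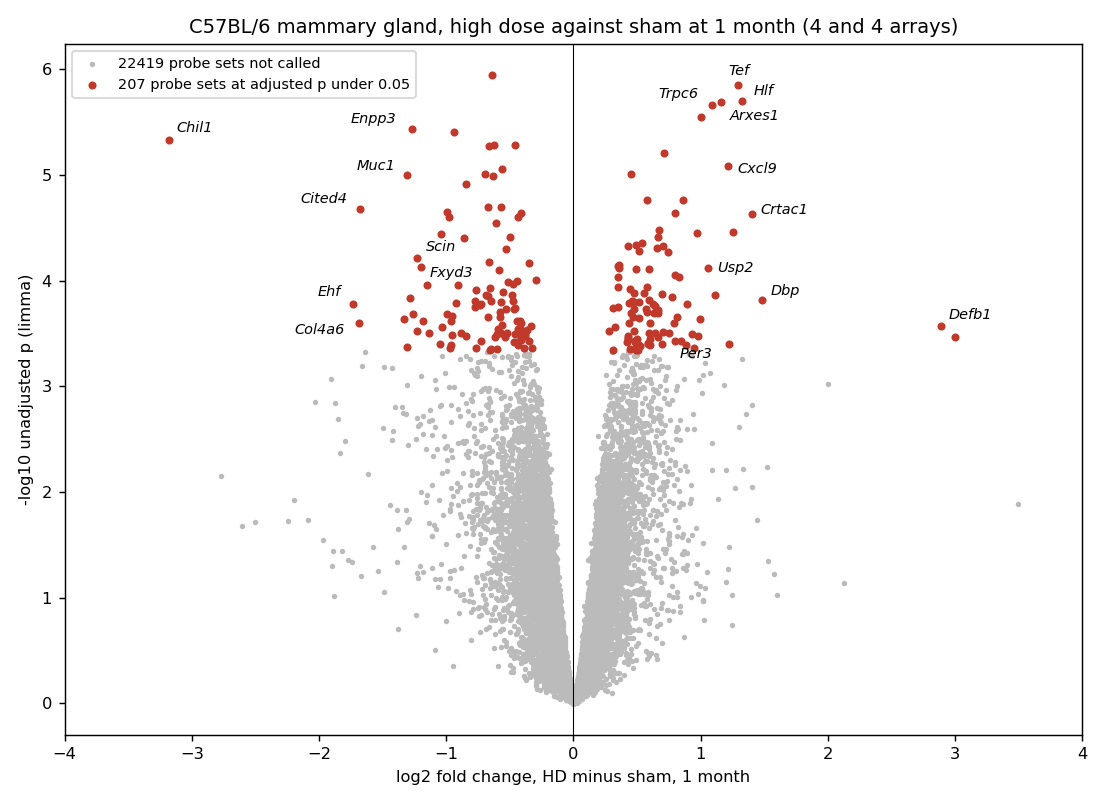
Log2 fold change of HD minus sham at 1 month (x axis) against −log10 of the unadjusted limma p (y axis) for 22626 probe sets, with the 207 at an adjusted p under 0.05 in red and genes of the naming rule labelled. Chil1 stands farthest left at −3.18 and Defb1 at 2.89 on the right, while Tef, Hlf, Arxes1 and Trpc6 have the smallest p among the labelled higher genes.

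Genes of the circadian clock made up the group with the most called members. Of 22 listed clock genes 18 were measured. At the brightest probe set of each, 6 were higher at an adjusted p under 0.05 and 0 lower, where 0.449% of all 11807 genes were called higher and 0.525% lower. The median log2 fold change over the 18 was 0.40, against −0.00199 over all genes, and 0.43 without sham replicate 2. HD and sham arrays did not overlap for 12 of the 18, 9 higher and 3 lower, where 5.20% and 5.58% of all genes had such gaps. Without sham replicate 2, 3 of the 6 passed.

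Because output factors and period genes moved together, the 250 bases before the start of 3 of them are shown, from RefSeq on GRCm38.p6, in the direction of transcription, 5′ to 3′. Capitals mark an E-box (CACGTG) or a D-box (TTANGTAA), searched on both strands together with the ROR element TAGGTCA; no 2 matches overlapped. Tef (the first of 2 starts, chr15:81802423-81802672, plus strand) held 1 E-box, 127 to 122 bases before the start. Per3 (chr4:151044666-151044915, minus strand) held 2 D-boxes, 205 to 198 and 158 to 151 bases before its start. None of these motifs was found in the window of Dbp (chr7:45704997-45705246, plus strand).
Tef: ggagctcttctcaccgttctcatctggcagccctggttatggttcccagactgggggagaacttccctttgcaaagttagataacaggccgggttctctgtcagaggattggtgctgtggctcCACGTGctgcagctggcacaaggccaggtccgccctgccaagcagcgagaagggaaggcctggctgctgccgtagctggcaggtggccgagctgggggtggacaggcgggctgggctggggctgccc
Per3: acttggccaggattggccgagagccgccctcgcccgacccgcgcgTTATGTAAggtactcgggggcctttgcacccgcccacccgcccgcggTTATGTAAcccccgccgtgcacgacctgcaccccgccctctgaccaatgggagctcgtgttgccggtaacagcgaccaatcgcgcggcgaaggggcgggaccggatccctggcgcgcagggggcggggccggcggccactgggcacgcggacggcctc
Dbp: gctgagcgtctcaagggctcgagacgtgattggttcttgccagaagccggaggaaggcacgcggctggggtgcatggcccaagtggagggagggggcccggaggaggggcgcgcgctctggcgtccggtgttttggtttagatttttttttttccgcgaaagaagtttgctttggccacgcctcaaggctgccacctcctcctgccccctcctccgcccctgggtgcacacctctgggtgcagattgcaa
Among all 32851 promoter windows of this length, 6.02% held the E-box, 2.06% the D-box and 2.23% the ROR element. The windows of Hlf, Usp2, Rora and Nr1d2 held none of them, and the other start of Tef held an E-box. A match is a description of letters and not a binding site.

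The 3 output factors rose. Dbp, a transcription factor of the PAR family, was at 10.21, 10.23, 10.19 and 10.09 in HD replicates 1 to 4 and at 8.00, 8.94, 8.64 and 9.21 in sham replicates 1 to 4. The HD arrays lay close together and above every sham array, the nearest 0.88 away. The log2 fold change was 1.48 (SE 0.321, adjusted p = 0.0391), 2.79-fold, and 1.56 without sham replicate 2 (adjusted p = 0.0595). Hlf, a related factor, was at 8.69, 8.73, 8.26 and 8.40 after HD and at 6.92, 7.04, 7.42 and 7.38 after sham. Its groups were 0.84 apart, and the log2 fold change of 1.33 (SE 0.204, adjusted p = 0.00975) passed the threshold with any 1 of the 8 arrays left out. The other Hlf probe set rose by 1.25 (SE 0.238, adjusted p = 0.0228). Tef, the third factor, was at 7.08, 6.94, 6.89 and 7.15 after HD and at 5.66, 5.69, 5.42 and 6.10 after sham, with a log2 fold change of 1.30 (SE 0.194, adjusted p = 0.00975). Its other probe set rose by 1.01 (SE 0.158, adjusted p = 0.01), and both passed with any 1 array left out.

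Repressors and modulators of the clock followed. Per3, a period gene, was at 9.03, 8.53, 8.68 and 8.52 after HD and at 7.53, 7.66, 7.93 and 7.74 after sham. No sham array reached the HD arrays, and the log2 fold change was 0.98 (SE 0.228, adjusted p = 0.0463). It stayed under the threshold in 1 of the 8 fits without an array, was 0.96 without sham replicate 2 (adjusted p = 0.0966), and its other probe sets were at 0.68 (adjusted p = 0.0755) and 0.19 (adjusted p = 0.343). Usp2, a deubiquitinase that acts on clock proteins, rose by 1.06 on the log2 scale (SE 0.215, adjusted p = 0.0309), with 7.77 to 8.41 after HD and 6.62 to 7.39 after sham, and its other probe set rose by 0.77 (adjusted p = 0.0391). Rora, a nuclear receptor that activates Arntl, rose by 0.54 (SE 0.105, adjusted p = 0.0247), from 7.72 to 8.11 in sham to 8.32 to 8.55 in HD. Without sham replicate 2 Usp2 was at 1.20 (adjusted p = 0.0389) and Rora at 0.48 (adjusted p = 0.0643).

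The next members, chosen after their values were seen, did not pass at their brightest probe set. Per2, the second period gene, was at 8.35, 7.74, 7.91 and 7.67 after HD and at 6.36, 6.61, 6.73 and 6.67 after sham. Its groups lay 0.94 apart, but its adjusted p was 0.0524 at a log2 fold change of 1.32 (SE 0.325). Arntl, which encodes the partner of CLOCK, was at 4.65, 5.03, 4.89 and 4.98 after HD and at 5.84, 5.74, 5.52 and 5.92 after sham, a log2 fold change of −0.87 (adjusted p = 0.126). Its group order was the reverse of that of Per2. The other 2 genes of the activating arm also had negative values, Npas2 of −0.62 (adjusted p = 0.0864) and Clock of −0.39 (adjusted p = 0.0652), both with groups that did not overlap. Nr1d2, a repressor of Arntl, was at 0.40 (adjusted p = 0.195) at its brighter probe set and passed at the other, at 0.58 (adjusted p = 0.048). Cry2, a further repressor, was at 0.58 (adjusted p = 0.0548), while Per1 (0.24) and Cry1 (−0.07) had groups that overlapped.

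LD arrays of the same age gave a side-by-side value against the same sham arrays, which the comparisons share. Against sham, LD gave log2 fold changes of 0.50 for Dbp, 0.27 for Hlf, 0.56 for Tef, −0.11 for Per3 and 0.00 for Per2. In the direct comparison of HD with LD, which uses no sham array, Hlf was 1.05 higher after HD (95% interval 0.63 to 1.48, adjusted p = 0.132) and Per3 1.09 higher (0.61 to 1.56, adjusted p = 0.133), and no gene of the array passed. LD replicate 4 was the highest LD array for Dbp (9.91) and Tef (6.95), and for Tef it reached the range of HD. Sham arrays of 4 hr, from younger mice, reached the 1 month HD range for Tef (6.73 to 7.10) and Usp2 (7.54 to 8.46). They lay below it for Dbp (8.78 to 9.33), Hlf (7.37 to 8.00), Per3 (7.47 to 8.19) and Rora (8.21 to 8.30). Collection times within the day were not given in the sources used here, and their part in these values was not tested.

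**Figure D2:**
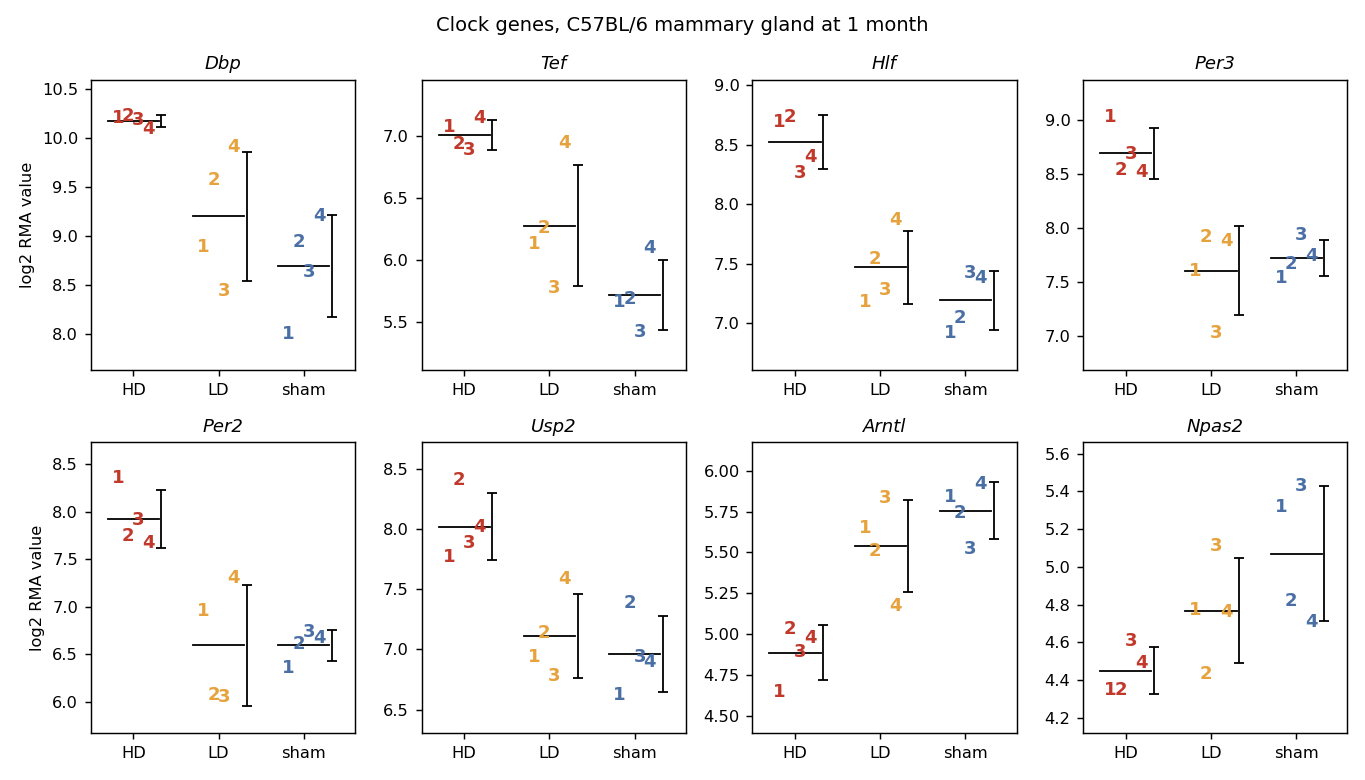
Log2 RMA values (y axes, each with its own range) of 8 clock genes in HD, LD and sham arrays at 1 month, where digits are replicate numbers, horizontal lines are means and bars are 1 standard deviation (n = 4). HD arrays lie above all sham arrays for Dbp, Tef, Hlf, Per3, Per2 and Usp2 and below them for Arntl and Npas2.

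Chil1, Muc1, Ehf, Cited4 and Fxyd3 were among the 12 largest decreases by the rule for named genes. Chil1 was at 4.99, 5.61, 4.87 and 6.38 after HD and at 8.96, 8.98, 7.45 and 9.17 after sham. Its lowest sham array, replicate 3, lay 1.08 above its highest HD array, and the log2 fold change of −3.18 (SE 0.519, adjusted p = 0.01), 9.06-fold, passed with any 1 array left out. Muc1, the transmembrane mucin of luminal cells, was at 5.19, 4.51, 4.86 and 5.47 after HD and at 6.58, 6.61, 5.91 and 6.15 after sham, a log2 fold change of −1.31 (SE 0.226, adjusted p = 0.0123). Ehf, an epithelial ETS factor, was at 4.26, 4.50, 4.23 and 5.17 after HD and at 6.87, 5.50, 6.92 and 5.81 after sham, with a log2 fold change of −1.73 (SE 0.378, adjusted p = 0.0391). At these probe sets all HD arrays were below all sham arrays. Of the 3 Ehf probe sets 1 passed, and the others were at −1.91 (adjusted p = 0.0618) and, at the brightest, −2.03 (adjusted p = 0.074), where HD replicate 4 (8.55) lay above sham replicate 2 (8.47). Cited4, a transcriptional coactivator, was within 4.41 to 4.63 after HD and at 6.25, 6.30, 6.29 and 5.89 after sham, a log2 fold change of −1.68 (SE 0.307, adjusted p = 0.0182). Fxyd3, an epithelial regulator of the sodium pump, fell by 1.20 on the log2 scale (SE 0.243, adjusted p = 0.0309), from 10.67 to 11.08 in sham to 9.40 to 10.04 in HD. In sham arrays of 4 hr, from younger mice, values reached the 1 month HD range for Chil1 (5.08 to 7.19) and Muc1 (5.23 to 6.30). The same held for Ehf (4.60 to 6.12) and Fxyd3 (10.01 to 10.42), while Cited4 (4.95 to 6.02) lay above its HD range.

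Muc1 and Ehf also belong to the luminal list. Of 35 measured luminal genes 26 had negative and 9 positive log2 fold changes, with a median of −0.44 (−0.43 without sham replicate 2), and 1, Muc1, passed. Over all 11807 genes, 5964 had negative values and 0.525% were called lower. The next by p were Kit, a receptor of luminal progenitors, at −1.08 (adjusted p = 0.0674), the brightest probe set of Ehf, and Elf5, the ETS factor of alveolar cells. Elf5 was at 8.54, 7.98, 8.34 and 9.17 after HD and at 9.74, 9.98, 10.19 and 9.80 after sham, a log2 fold change of −1.42 (adjusted p = 0.0864). Its dimmer probe set, chosen after its values were seen, passed at −0.65 (adjusted p = 0.0494), and neither overlapped between groups. The keratins that define luminal cells did not separate the groups: Krt8 was at −0.25, Krt18 at −0.23 and Krt19 at 0.23, each with an adjusted p of 0.696 to 0.765. Mean levels over the whole list were 8.08 to 8.53 after HD and 8.39 to 8.99 after sham, and so overlapped. They were 8.28 to 8.47 in sham arrays of 4 hr.

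Among 21 genes of milk and alveolar differentiation, Mfge8, a milk fat globule protein, passed, where 0.525% of all genes were called lower. It was at 10.66, 10.38, 10.71 and 10.82 after HD and at 11.38, 11.45, 11.28 and 11.14 after sham, a log2 fold change of −0.67 (SE 0.144, adjusted p = 0.0391). Its 4 hr sham arrays (10.43 to 11.10) reached the HD range. Lcn2, an iron-binding secreted protein, was at −0.69 (adjusted p = 0.0745) and Csn3, kappa casein, at −1.23 (adjusted p = 0.0786). Csn3 overlapped because sham replicate 1 (9.94) lay at the level of the HD arrays (9.45 to 10.00). The list median was −0.18, with 15 negative values, and LD gave −0.06 against the same sham arrays.

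Basal and matrix genes had mostly negative values. Of 19 myoepithelial genes 1 had a positive value and 0 passed, with a median of −0.28 (−0.33 without sham replicate 2). LD gave a list median of −0.475 against the same sham arrays, and the HD minus LD median was 0.118. List means were 7.70 to 8.06 after HD, 8.06 to 8.53 after sham and 7.71 to 8.12 in sham arrays of 4 hr. Sox9, a factor of basal and progenitor cells, is named by the study for LD. After HD it was at −0.75 (adjusted p = 0.0534) and −0.78 (adjusted p = 0.105) at its 2 probe sets, without overlap of the groups. Krt14, Cdh3 and Krt5, all markers of basal cells, were at −0.76, −0.39 and −1.02 (adjusted p = 0.159, 0.165 and 0.175). Of the basement membrane genes, Col4a6 was at 5.38, 5.47, 5.19 and 5.98 after HD and at 7.35, 7.13, 7.31 and 6.96 after sham. The groups lay 0.98 apart, with a log2 fold change of −1.68 (SE 0.382, adjusted p = 0.0434), and its other probe set passed at −1.14 (adjusted p = 0.0462). Col4a5, the neighboring collagen gene on the X chromosome (141475370 to 141689236, where Col4a6 ends at 141474095, GRCm38.p6), was at 8.12, 8.12, 8.07 and 8.43 after HD and at 9.71, 8.93, 9.62 and 9.41 after sham, a log2 fold change of −1.23 (SE 0.284, adjusted p = 0.0462). Its other probe set did not pass, at −0.71 (adjusted p = 0.18), with HD replicate 4 and sham replicate 2 both at 7.15. LD arrays had values near those of HD, with −1.44 for Col4a6 and −1.13 for Col4a5 against the shared sham arrays. HD differed from LD by −0.24 for Col4a6 (95% interval −1.03 to 0.56) and by −0.10 for Col4a5 (−0.70 to 0.49). At these probe sets the 4 hr sham arrays reached the 1 month HD range for Col4a6 (5.84 to 7.19) and Col4a5 (8.10 to 9.31).

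Of 43 matrix genes 35 had negative values, with a median of −0.31 (−0.36 without sham replicate 2), and 1 passed. Over all 11807 genes, 5964 had negative values and 0.525% were called lower. Mmp14, a membrane-bound collagenase, was at 8.97, 9.58, 9.43 and 9.66 after HD and at 10.15, 10.03, 10.23 and 10.14 after sham, a log2 fold change of −0.72 (SE 0.158, adjusted p = 0.0391). LD gave −0.06 for Mmp14, and its 4 hr sham arrays (9.54 to 10.00) reached the HD range. Over the whole matrix list the LD median was −0.227, with 6 of 43 values positive, and the HD minus LD median was −0.0652. List means were 9.20 to 9.58 after HD, 9.59 to 9.88 after sham and 9.37 to 9.73 in sham arrays of 4 hr. Col16a1, Fn1 and Mfap2, of fibril-associated collagen, fibronectin and microfibrils, were at −1.11, −0.99 and −0.71 (adjusted p = 0.0901 to 0.0993). HD replicate 1 was the lowest array for Fn1, at 9.78 against 11.26 to 11.84 in the other HD arrays. Beside these negative values, 26 of 27 white adipocyte genes had positive values, and the part of a changed mix of cells in either was not tested.

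**Figure D3:**
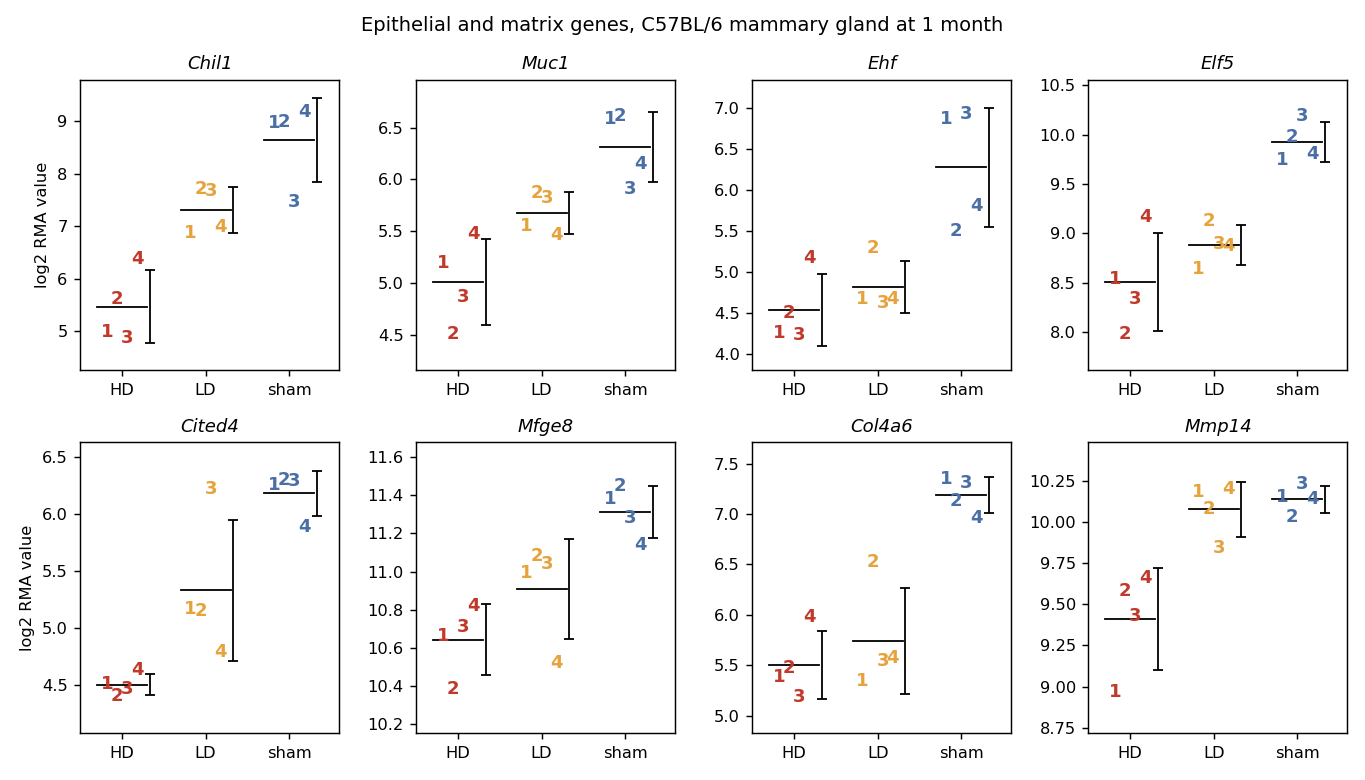
Log2 RMA values (y axes, each with its own range) of 8 epithelial and matrix genes in HD, LD and sham arrays at 1 month, where digits are replicate numbers, lines are means and bars are 1 standard deviation (n = 4). HD arrays lie below all sham arrays in every panel, and the LD mean lies between the other means for Chil1 and Muc1, near HD for Ehf and Col4a6 and near sham for Mmp14.

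The remaining genes of the 12 largest decreases had mixed roles. Emb, a cell adhesion protein, was at −1.31 (SE 0.312, adjusted p = 0.0493). Its other probe sets did not pass, at −1.20 (adjusted p = 0.0596) and, at the brightest, −0.14 (adjusted p = 0.515). Gna14, a G protein subunit, was at −1.28 (SE 0.277, adjusted p = 0.0391), and at −0.64 (adjusted p = 0.103) at its other probe set. Acot1, a fatty acyl-CoA thioesterase, was at −1.26 (SE 0.28, adjusted p = 0.0406). Enpp3, an ectonucleotide pyrophosphatase, fell by 1.27 (SE 0.203, adjusted p = 0.01), from 7.32 to 7.95 in sham to 5.98 to 6.59 in HD. Scin, an actin-severing protein, fell by 1.23 (SE 0.246, adjusted p = 0.0287), from 5.86 to 6.49 in sham to 4.75 to 4.99 in HD. Of the 4 Enpp3 probe sets, another was at −0.89 (adjusted p = 0.0462) and the last 2 were at −0.10 and 0.03. Enpp3 and Chil1 were the 2 of these 12 genes that passed with any 1 array left out. All 4 hr sham arrays of Acot1 (7.29 to 7.51) lay within its 1 month HD range (6.85 to 8.13). Those of Gna14 (5.76 to 6.34), Emb (6.56 to 7.87) and Enpp3 (6.44 to 7.27) reached the HD range. Those of Scin (5.11 to 5.72) lay above it.

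Genes induced by interferon had mostly positive values. Of 38 measured, 34 had positive log2 fold changes and 3 passed, where 0.449% of all genes were called higher, with a median of 0.345 (0.481 without sham replicate 2). Cxcl9, a chemokine induced by interferon gamma that attracts T cells, was at 9.89, 9.38, 9.77 and 9.86 after HD and at 9.19, 7.96, 8.35 and 8.52 after sham. HD replicate 2 and sham replicate 1 were the nearest arrays, 0.19 apart, and the log2 fold change was 1.22 (SE 0.207, adjusted p = 0.0123; 1.03 and adjusted p = 0.0459 without sham replicate 2). Irf1, a transcription factor of the pathway, was at 9.08, 8.93, 8.89 and 9.09 after HD and at 8.69, 8.62, 8.56 and 8.73 after sham, a small shift of 0.35 (SE 0.0765, adjusted p = 0.0392). Gbp2, a guanylate-binding GTPase, was at 9.56, 9.51, 9.49 and 9.42 after HD and at 9.41, 8.90, 8.76 and 8.85 after sham, a log2 fold change of 0.51 (SE 0.115, adjusted p = 0.0423), with groups 0.01 apart. Its other probe set was at 0.35 (adjusted p = 0.236), where sham replicate 1 (9.32) lay above all HD arrays (8.92 to 9.28). Lgals3bp, a secreted glycoprotein, was at 0.62 (adjusted p = 0.0715).

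The mean level of this list was 7.87, 8.40, 8.30 and 8.17 in HD replicates 1 to 4 and 7.70, 8.22, 7.64 and 7.70 in sham replicates 1 to 4. Sham replicate 2, the array with muscle transcripts, thus lay among the HD arrays. LD arrays ranged from 7.73 to 8.48, with a list median of 0.28 against the same sham arrays, and the HD minus LD median was 0.02. Genes induced mostly by type I interferon varied within groups: Ifit1 overlapped by 1.43 and Oasl1 by 1.78 between groups, chosen after their values were seen.

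For the members that moved together, the 250 bases before the start are shown for 3 genes, as above, with capitals for a gamma-activated site (GAS, TTCNNNGAA) or an interferon-stimulated response element (ISRE, the letters GAAA on either side of NN), searched on both strands. Gbp7, a further GTPase that rose by 0.64 (adjusted p = 0.0392), was chosen after its values were seen. Irf1 (first of 2 starts, chr11:53769764-53770013, plus strand) held 1 GAS, 90 to 82 bases before its start. Gbp2 (chr3:142620413-142620662, plus strand) held 1 ISRE, 59 to 50 bases before its start. Gbp7 (chr3:142530086-142530335, plus strand) held 2 GAS, at 106 to 98 and 87 to 79 bases, and 1 ISRE, at 53 to 44 bases.
Irf1: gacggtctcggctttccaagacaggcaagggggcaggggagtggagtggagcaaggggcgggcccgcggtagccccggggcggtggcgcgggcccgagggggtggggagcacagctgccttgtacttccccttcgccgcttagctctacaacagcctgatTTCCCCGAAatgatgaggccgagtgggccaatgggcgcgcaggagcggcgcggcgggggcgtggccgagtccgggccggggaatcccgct
Gbp2: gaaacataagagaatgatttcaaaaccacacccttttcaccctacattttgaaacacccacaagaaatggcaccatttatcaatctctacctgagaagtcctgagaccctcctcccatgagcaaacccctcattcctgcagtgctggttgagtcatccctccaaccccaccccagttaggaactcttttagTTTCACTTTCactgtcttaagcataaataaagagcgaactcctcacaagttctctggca
Gbp7: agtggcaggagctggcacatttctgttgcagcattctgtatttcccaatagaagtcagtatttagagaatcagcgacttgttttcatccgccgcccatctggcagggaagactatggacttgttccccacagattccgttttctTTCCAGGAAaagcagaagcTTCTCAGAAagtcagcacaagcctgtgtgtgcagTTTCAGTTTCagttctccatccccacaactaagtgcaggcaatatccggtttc
GAS was in 7.02% and ISRE in 2.98% of all windows. No match was found in the windows of Cxcl9, Psmb9 or the other start of Irf1.

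Genes of antigen presentation are given by class, and the difference between the classes was not tested. Psmb9, a subunit of the immunoproteasome that cuts peptides for MHC class I, rose by 0.44 (SE 0.0999, adjusted p = 0.0434), from 8.52 to 8.73 in sham to 8.82 to 9.26 in HD, while its other probe sets were at 0.24 (adjusted p = 0.458) and 0.10 (adjusted p = 0.726). It was the 1 of 16 class I and peptide loading genes that passed, with a list median of 0.19 (0.17 without sham replicate 2). Of all genes, 0.449% were called higher. H2-T10, Psmb8 and H2-Q10, which encode class I molecules and another such subunit, were at 0.33, 0.34 and 0.95 (adjusted p = 0.07, 0.074 and 0.0852). H2 genes of this class are near-identical in sequence, so their probe sets may read one another. Of 11 class II genes 9 had negative values and 0 passed, with a median of −0.45. H2-Ab1, H2-Eb1, Cd74 and H2-Aa, the class II chains and their chaperone, were at −0.73, −0.58, −0.56 and −0.63 (adjusted p = 0.0677 to 0.166). At 4 hr, 6 of the 11 class II genes were lower at an adjusted p under 0.05, with a median of −1.26, where 0.440% of all genes were called lower at 4 hr.

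Leukocyte lists differed by cell type and by array. Cd14, a lipopolysaccharide coreceptor of macrophages, was at 7.98, 8.01, 8.24 and 8.87 after HD and at 9.21, 9.07, 9.42 and 9.34 after sham, a log2 fold change of −0.98 (SE 0.182, adjusted p = 0.0182; −1.05 and adjusted p = 0.0428 without sham replicate 2). It was the 1 of 34 macrophage genes that passed, in a list with 7 positive values and a median of −0.28. Of all genes, 0.525% were called lower. Defining markers of macrophages were not called, with Csf1r at −0.35 and Cd68 at −0.28, and list means were 7.22 in HD replicate 1 and 7.87 to 8.39 in the other 7 arrays. Mertk, a phagocytic receptor, was at 0.59 (adjusted p = 0.0743) and Mpeg1, a pore-forming protein, at −0.68 (adjusted p = 0.186). Marco, a scavenger receptor, was at 9.48 in HD replicate 3 and at 3.94 to 4.24 in the other 7 arrays.

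T cell and B cell genes had mostly positive values, 16 of 17 and 17 of 19, and none passed (at an unadjusted p under 0.05, 7 and 3 were higher, where 8.33% of all genes were). Medians were 0.40 and 0.26. The T cell genes Gimap3, Cd247, Cd6 and Zap70 were at 0.72, 0.61, 0.41 and 0.43 (adjusted p = 0.0819 to 0.145), and the B cell genes Cd79a, Cxcr5, Blk and Cd79b at 0.47, 0.26, 0.47 and 0.50 (adjusted p = 0.189 to 0.366). HD replicate 3 was the highest array for all 4 named B cell genes. Without it the B cell list median was −0.0532, and the T cell median was 0.111. Without that array the interferon median was 0.277 and the clock median 0.425.

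Adipocyte genes had small positive values. Of 27 white adipocyte genes 26 had positive values, with a median of 0.35 (0.25 without sham replicate 2), and 1 passed. Over all 11807 genes, 5843 had positive values and 0.449% were called higher. List means were 11.23 to 11.43 after HD, 10.78 to 11.37 after LD and 10.78 to 11.16 after sham, with sham replicates 2 (10.79) and 3 (10.78) lowest. In sham arrays of 4 hr they were 11.42 to 11.58, the level of the highest HD arrays or above. Pparg, the nuclear receptor that directs fat cell differentiation, was at 11.24, 11.15, 11.06 and 11.30 after HD and at 10.71, 10.76, 9.95 and 10.68 after sham, a log2 fold change of 0.66 (SE 0.155, adjusted p = 0.0465; 0.74 and adjusted p = 0.0587 without sham replicate 2). Sham replicate 3 was the lowest array. Cebpa, its partner factor, was at 0.37 (adjusted p = 0.0921), the retinol carrier Rbp4 at 0.75 (adjusted p = 0.121), and Lep, leptin, at 1.13 (adjusted p = 0.152). Arxes1, a gene induced by PPARG in adipocytes, was at 10.40, 10.43, 10.02 and 10.36 after HD and at 9.17, 9.26, 8.77 and 9.34 after sham. The groups lay 0.67 apart, and the log2 fold change of 1.16 (SE 0.178, adjusted p = 0.00975) passed with any 1 array left out. Its copy Arxes2, chosen after its values were seen, rose by 0.79 (adjusted p = 0.0434), and near-identical copies may share probes. The abundant adipocyte genes Adipoq and Fabp4 were at 0.21 and 0.10, near the top of the range of the arrays.

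The remaining genes of the 12 largest increases were of other kinds. Defb1 was at 10.25, 9.31, 9.50 and 9.87 after HD and at 7.93, 6.33, 7.65 and 5.46 after sham, a log2 fold change of 2.89 (SE 0.66, adjusted p = 0.0447), 7.42-fold. The sham arrays spread widely, but the groups were 1.38 apart, and the other probe set passed too at 3.00 (adjusted p = 0.0465). Against the shared sham arrays LD was at −0.54, and HD exceeded LD by 3.43 (95% interval 2.06 to 4.81, adjusted p = 0.132). Without sham replicate 2 the Defb1 value was 2.72 (adjusted p = 0.101). Trpc6, a cation channel, was at 5.50, 5.34, 5.23 and 4.41 after HD and at 3.89, 4.00, 4.27 and 3.97 after sham, a log2 fold change of 1.09 (SE 0.168, adjusted p = 0.00975) that passed with any 1 array left out. Its sham values lay in the range of the keratinocyte gene Krt1 on these arrays (3.74 to 4.34), and whether the probe set was above background in sham was not tested. Crtac1, a secreted matrix protein, was at 1.40 (SE 0.258, adjusted p = 0.0182), Arhgap24, a GTPase-activating protein, at 0.99 (SE 0.223, adjusted p = 0.0423), and Fads3, of the fatty acid desaturase family, at 0.95 (SE 0.226, adjusted p = 0.0493). Fads3 was at 0.81 without sham replicate 2 (adjusted p = 0.124). Sham arrays of 4 hr reached the 1 month HD range for Defb1 (7.35 to 9.47), Arhgap24 (8.23 to 8.51) and Fads3 (9.52 to 10.15). They lay below it for Trpc6 (4.14 to 4.34) and Crtac1 (4.33 to 4.41).

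**Figure D4:**
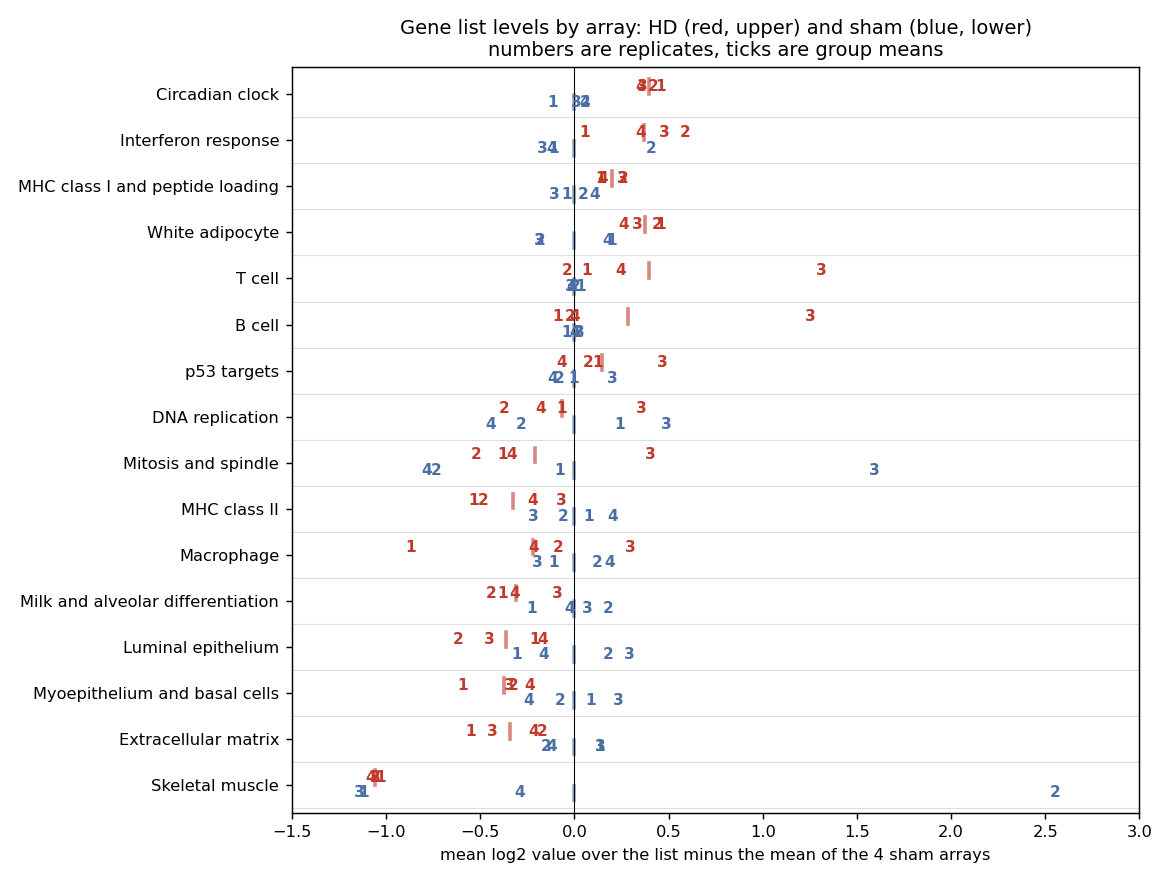
Mean log2 RMA value over each gene list minus the mean of the 4 sham arrays (x axis) for 16 lists, with HD arrays as red digits (upper) and sham arrays as blue digits (lower), digits for replicate numbers and ticks for group means. HD arrays (7.75 to 7.85) lie clear of sham arrays (7.28 to 7.45) for the clock list, sham replicate 2 stands apart for skeletal muscle, sham replicate 3 for mitosis and HD replicate 3 for T and B cells.

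The p53 targets showed how the 1 month response differed from the 4 hr response. At 4 hr after HD, 13 of 32 measured p53 targets were higher at an adjusted p under 0.05, with a median of 0.48, where 0.423% of all genes were called higher. At 1 month 0 of the 32 passed, and the median was 0.188 (0.155 without sham replicate 2). At an unadjusted p under 0.05, 7 of the 32 were higher and 1 lower at 1 month, where 8.33% of all genes were higher. Cdkn1a, which encodes the cell cycle inhibitor p21, was at 7.89, 8.47, 9.09 and 7.66 after HD and at 7.31, 7.63, 7.58 and 6.85 after sham. The groups were 0.03 apart, and the log2 fold change was 0.93 (SE 0.387, adjusted p = 0.212), against 2.54 (adjusted p = 0.00289) at 4 hr. The difference between both times, −1.61, did not pass (adjusted p = 0.769). Phlda3, an inhibitor of AKT, Epha2, an ephrin receptor, and Sesn2, a stress-induced antioxidant regulator, were at 0.61, 0.27 and 0.40 at 1 month (adjusted p = 0.0651 to 0.163). Another probe set of the target Ccng1, chosen after its values were seen, passed at 0.57 (adjusted p = 0.0375), with HD replicate 3 (9.30) above the other HD arrays (8.63 to 8.71).

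The test of the difference in response called 7 genes, all with a lower response at 1 month than at 4 hr, on 9 probe sets (0.0398% of all probe sets). Mdm2, the p53 ubiquitin ligase, was at 9.28, 9.22, 9.29 and 9.36 in HD arrays at 4 hr against 8.10, 8.16 and 8.14 in sham, and at 8.21, 8.23, 8.76 and 8.28 in HD arrays at 1 month against 8.22, 8.32, 8.29 and 8.35 in sham. HD and sham arrays of 4 hr were a full unit apart, while those of 1 month overlapped. The response at 1 month minus that at 4 hr was −1.08 (adjusted p = 0.00414), and its other probe set gave −1.09 (adjusted p = 0.0265). Aen, a nuclease induced by p53, was at 8.72, 8.48, 8.58 and 8.56 in HD arrays at 4 hr and at 6.96, 7.08, 7.54 and 6.94 at 1 month, with sham arrays between 6.48 and 7.02 at both times. Its response differed by −1.52 (adjusted p = 0.0278), and its other probe sets gave −1.60 (adjusted p = 0.00203) and −0.37 (adjusted p = 0.687). The thiamine transporter Slc19a2 differed by −1.91 (adjusted p = 0.000176; −0.61 and 0.615 at its other probe set), the xylulose reductase Dcxr by −1.02 (adjusted p = 0.00465), the p53-induced gene Ei24 by −0.53 (adjusted p = 0.0278), the thioredoxin-binding Txnip by −1.09 (adjusted p = 0.0163; −0.86 and 0.111 at its other probe set) and the adenylate kinase Ak1 by −1.66 (adjusted p = 0.0278). For Ak1, a gene of skeletal muscle, sham replicate 2 was at 7.98 against 6.70 to 6.96 in the other sham arrays. Leaving out HD replicate 3 raised the count to 16 and sham replicate 1 to 12, while it was 4 without sham replicate 2 or 3 of 4 hr. Clock and luminal genes gave no call in this test. Their medians at 4 hr and 1 month were 0.12 and 0.40 for the clock list, and −0.58 and −0.44 for the luminal list.

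**Figure D5:**
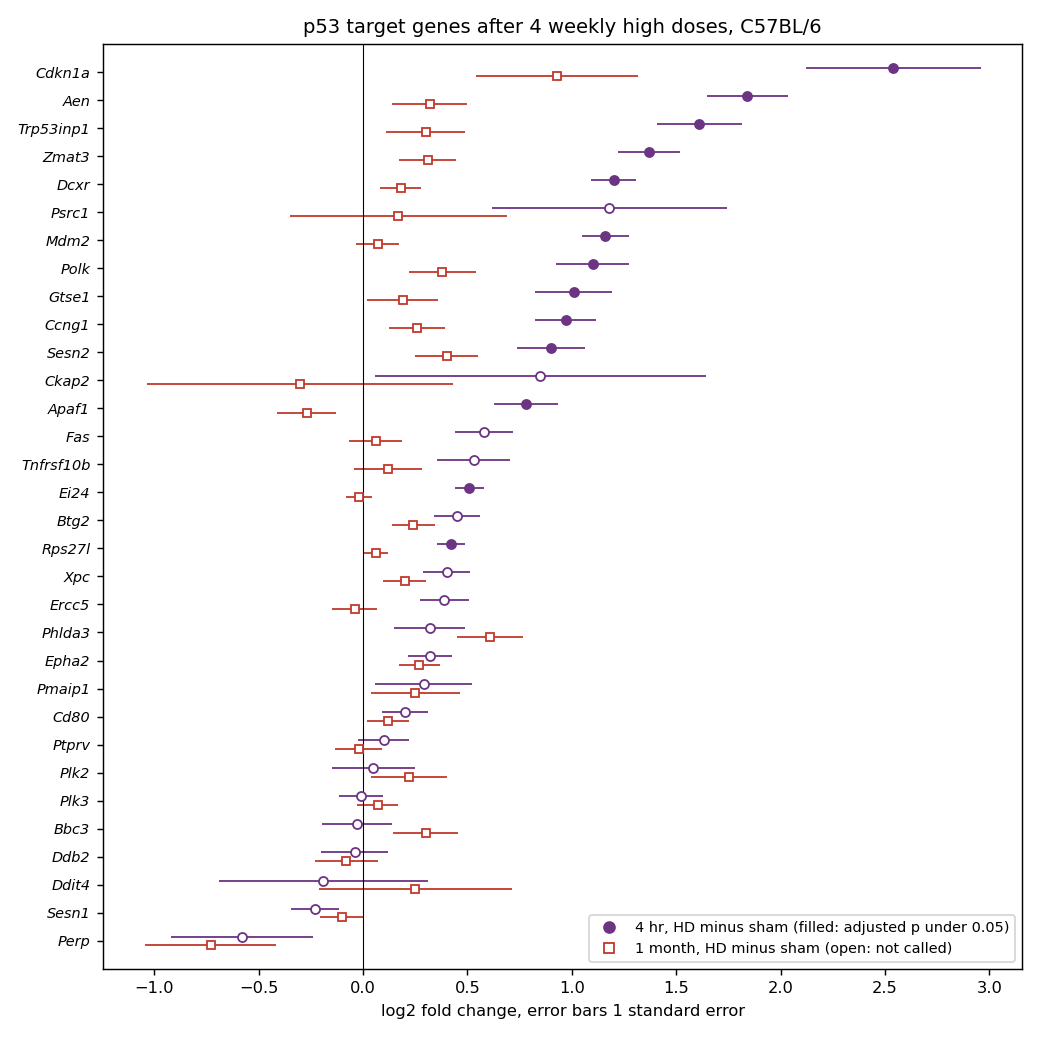
Log2 fold change of HD minus sham (x axis, error bars 1 standard error) for 32 p53 targets in the C57BL/6 MG, with circles for 4 hr (4 HD and 3 sham arrays) and squares for 1 month (4 and 4 arrays), filled where the adjusted p is under 0.05. The 13 filled circles lie between 0.42 and 2.54, and the squares lie between −0.73 and 0.93 with none filled.

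No gene of the mitosis and replication lists passed at its brightest probe set. Of 45 mitosis genes 6 had positive values and 0 passed in either direction (0 also at an unadjusted p under 0.05), with a median of −0.21 that became −0.43 without sham replicate 2 and 0.22 without sham replicate 3. Foxm1, Ttk, Nek2 and Aurkb, a factor and 3 kinases of mitosis, were at −0.16, −0.42, −0.16 and −0.36 (adjusted p = 0.48 to 0.656). Ccna2, cyclin A2, is named by the study for LD and not for HD. It was at 5.24, 5.14, 6.89 and 5.37 after HD and at 5.74, 4.46, 8.07 and 4.44 after sham. The log2 fold change was −0.02 (SE 0.699, adjusted p = 0.994). Its sham arrays spread more widely than the groups differed. Skp2, a subunit of a ubiquitin ligase that degrades p27, is also named by the study for LD. It was at 4.49, 4.76, 5.29 and 5.13 after HD and at 5.46, 5.24, 5.69 and 5.52 after sham. The log2 fold change was −0.56 (SE 0.172, adjusted p = 0.0998). HD replicate 3 lay above the lowest sham array. The other Skp2 probe sets were at −0.18 (adjusted p = 0.512) and 0.09 (adjusted p = 0.677). Among 39 replication genes 0 passed, with a median of −0.11; Rfc3, Ccne1 and Chaf1b were at −0.42, 0.27 and −0.19 (adjusted p = 0.198 to 0.414). Outside these lists the D-type cyclins Ccnd3 and Ccnd2, chosen after their values were seen, passed at 0.35 (adjusted p = 0.0309) and, at 2 of 6 Ccnd2 probe sets, at 0.50 (adjusted p = 0.047) and 0.47 (adjusted p = 0.0415). Of 29 muscle genes 27 had negative values and 0 passed, and the median of −0.97 became −0.105 without sham replicate 2. Ckm, Myh4, Ryr1 and Tnnc2, all of muscle fibers, had adjusted p of 0.153 to 0.194.

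The dose comparison set HD against LD at 1 month directly. It called 0 genes at an adjusted p under 0.05 (limma; 1 without HD replicate 4), and 9.18% of all probe sets had an unadjusted p under 0.05. Of the 24 genes named by size, 19 had an unadjusted p under 0.05 for HD minus LD, with 0.132 as the lowest adjusted p. These genes were chosen for their HD minus sham values, so that the HD arrays are shared. Sprr1a, a cornified envelope protein named by the study, was at 5.49, 4.58, 6.94 and 4.67 after HD, at 9.88, 8.74, 8.78 and 6.49 after LD and at 4.25, 5.71, 4.09 and 4.15 after sham. HD overlapped with sham (log2 fold change 0.87, adjusted p = 0.576), while HD minus LD was −3.05 (95% interval −4.53 to −1.58, unadjusted p = 0.000316, adjusted p = 0.198). In the study's own qPCR at 1 month, every C57BL/6 HD mouse measured had more Sprr1a than sham, as did every LD mouse. Atf3, a stress-induced transcription factor chosen after its values were seen, fell by 0.58 after HD (adjusted p = 0.0415) with a value of −0.72 for HD minus LD (adjusted p = 0.132).

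The strain comparison set the response of C57BL/6 against that of BALB/c at 1 month. Its test of the difference called 0 genes (limma; 1 without HD replicate 3), and 5.36% of all probe sets had an unadjusted p under 0.05. Each strain lay on a plate of its own, so strain and plate cannot be told apart. Of the 24 genes 10 had an unadjusted p under 0.05, with 0.549 as the lowest adjusted p, for Defb1. The 24 genes were chosen for their HD minus sham values in C57BL/6, so this comparison shares both C57BL/6 groups with that choice. For that reason the count, and the intervals of these genes, cannot show a strain difference. The Defb1 response was 2.89 in C57BL/6 and −0.29 in BALB/c, a difference of 3.18 (95% interval 1.60 to 4.76). Hlf was at 1.33 and 0.24, a difference of 1.09 (0.52 to 1.66, adjusted p = 0.603), and Trpc6 at 1.09 and −0.20, a difference of 1.29 (0.55 to 2.03, adjusted p = 0.711). Muc1 was at −1.31 and −0.87, with an interval of the difference from −1.25 to 0.38, and Fxyd3 at −1.20 and −1.21, with an interval from −0.69 to 0.72. The luminal list had a median of −1.06 in BALB/c against −0.44 here, and the macrophage list of 0.22 against −0.28, each with no member called in the test of the difference.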

How the data were processed

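The authors deposited log2 values of Affymetrix HT_MG-430A arrays. They had been made by RMA, a method that subtracts background, gives all arrays one distribution by quantiles and combines the probes of each set into 1 value, and were used with no further step. Array medians were 6.25 to 6.34, and the 8 arrays correlated with each other at 0.98 to 0.993. Of 22626 probe sets, 18003 had 1 gene symbol (11807 genes), 287 several and 4336 none. Symbols were those of the platform table, updated through gene identifiers to RefSeq on GRCm38.p6.

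Group means were fitted with limma over all 23 C57BL/6 MG arrays (all 43 MG arrays for the strain difference), with the Benjamini-Hochberg adjustment taken across the whole array. A gene was counted if any of its probe sets passed. Lists used the brightest probe set of each gene, and 878 of 1028 list entries were measured. Lists are described by counts and medians and were not tested. A single call in a list is a result for that gene and not for the list. A 95% interval is that of the fit. Named genes were 5 that the study names for this time in C57BL/6. The study reports Cdkn1a, Sox9, Skp2 and Ccna2 for LD, and Sprr1a for both doses. Others were the 12 called genes with the highest and the 12 with the lowest log2 fold change, where groups did not overlap. Each of these stood at the probe set with the smallest p. For each list described, its 4 genes of smallest p were also named. Members, lists and motifs were chosen with earlier results of these data known. Replicates were separate mice. The p-values set each difference against a spread between mice that is estimated over all groups of the fit. They do not account for plate column.

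Same-numbered HD and sham arrays had correlations of deviations of 0.072, 0.095, 0.161 and −0.051, so arrays were treated as unpaired. The fit was tested on simulated data. Alternatives left out each array in turn or used array weights, a trended and robust variance, centered arrays, the 8 arrays alone, plate column as covariate or random block, the brighter probe sets (mean above the median) or 1 probe set per gene. The second thresholds for HD are those the study used for its gene lists. Models were fitted in R 4.3.3 with limma 3.58.1. Tables and plots were made in Python 3.11 with numpy 2.4.6, matplotlib 3.10.9 and pandas 2.3.3.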

Additional observations from a re-analysis of the deposited data

Results flagged for a closer look

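In a group of 4 arrays, 1 array was set apart where its gap to the nearest other array, divided by the range of the group, was above the 95% critical value of Dixon's ratio. Chance gives this in about 1 of 20 groups. The flags were not set against the number of groups examined, and some or all of them may come by chance. Among genes called after HD, the ratio was 0.88 for Chil1 in sham replicate 3, 0.875 for Cited4 in sham replicate 4, 0.849 for Col4a5 and 0.85 for Fxyd3 in HD replicate 4, and 0.9 for Pparg in sham replicate 3. HD replicate 3 stood apart for Marco (0.981), Ccna2 (0.87), Mdm2 (0.868), the B cell genes Cxcr5 (0.926), Blk (0.934) and Cd79b (0.848), and the mean of the B cell list (0.932). Sham replicate 3 stood apart for the mitotic kinases Ttk (0.876) and Nek2 (0.875), for Cd79a (0.876) and for Cebpa (0.957). Sham replicate 2 stood apart for Sprr1a (0.898), for the muscle calcium channel Ryr1 (0.88) and for the mean of the interferon list (0.896). The ratio was 0.849 for Rfc3 in HD replicate 2 and 0.903 for Lep in sham replicate 1.

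The response to HD at 1 month differed from that at 4 hr for 7 genes by the limma test of the difference. The log2 response at 1 month minus that at 4 hr was −1.91 for Slc19a2, −1.66 for Ak1, −1.52 and −1.60 for 2 of the 3 probe sets of Aen (−0.37 for the other), −1.08 and −1.09 for both of Mdm2, −1.09 for Txnip, −1.02 for Dcxr and −0.53 for Ei24. None of these genes was called at 1 month against sham.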

How the results depend on the processing

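Against 151 genes called after HD, leaving out 1 array gave 15 to 350, array weights 252, the 8 arrays alone 45, the probe sets brighter than the median 338, and plate column as a linear covariate 0. The cause was not tested. Centered arrays gave 202 (142 higher and 60 lower, against 72 and 79), a trended and robust variance 175, plate column as a random block 150 and 1 probe set per gene 115. At the study's thresholds the count was 306, and 213 to 424 with 1 array left out. The replicate number as a block gave 139 genes (74 higher and 65 lower), and 12 instead of 7 for the difference between times. Same-numbered arrays shared only a number, and 2 of 4 HD arrays correlated best with their own. The difference between times gave 4 to 16 genes with 1 array left out and 13 with centered arrays. HD minus LD gave 0 to 1 with 1 array left out. The difference between strains gave 0 to 1 with 1 array left out and 2 with centered arrays. Of 36 genes named and called, 13 were called with the 8 arrays alone and 8 to 34 with 1 array left out. No named result changed direction where it was called, which says nothing of the genes that lost their call. With plate column as a linear covariate, all 36 lost it. Of 427 list medians under the alternatives, in the 27 lists above 0.1 in size, 8 changed sign: mitosis (0.224) without sham replicate 3, DNA replication without HD replicate 2 (0.0103), sham replicate 1 (0.0134) or sham replicate 3 (0.092), B cell (−0.0532) and plasma cell (−0.0488) without HD replicate 3, and milk (0.139) and heat shock (−0.137) with plate column. The number of arrays limits these results.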
